A study of Saccharomyces cerevisiae with 15 samples.

Results

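IRAK4(KD), a catalytically inactive form of the human kinase IRAK4, was compared with the empty plasmid in budding yeast across all 5449 measured genes. The comparison took the 3 arrays labelled IRAK4(KD) and the 3 labelled Control out of 15 arrays, and each gene symbol was represented by the probe set with the highest mean over all 15. All cells were Saccharomyces cerevisiae of the laboratory strain YPH499 and carried the plasmid pEG(KG), whose GAL1 promoter is switched on by galactose. IRAK4(KD) cells held the inactive kinase behind that promoter, and Control cells held the plasmid without an introduced kinase. The remaining arrays came from cells with active IRAK4, IRAK2 or IRAK1 in the same plasmid, 3 arrays each. Every culture grew for 18 h at 30 °C in medium with raffinose, was diluted to an optical density of 0.3 and then grew for 6 h at 30 °C in medium with galactose. The labels call the 3 arrays of each group biological replicates. They are named KD1, KD2 and KD3 for IRAK4(KD) and C1, C2 and C3 for Control where a result depends on 1 array.

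IRAK4 is a protein kinase that Toll-like and interleukin-1 receptors of human immune cells recruit through the adaptor MyD88, and yeast has no counterpart of these receptors. Yeast cells answer misfolded protein through the heat shock factor Hsf1, which drives genes of chaperones, the proteins that fold, hold or disaggregate other proteins. When glucose is absent, the kinase Snf1 and the activators Cat8 and Adr1 turn on genes for making sugar from smaller molecules and for burning fatty acids. Zap1 and Aft1 turn on genes for uptake when zinc or iron runs low.

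The values are log2 signals normalised by the authors, and a difference of 1 is a 2-fold difference. Array medians lay between 8.76 and 8.80 in IRAK4(KD) and between 8.72 and 8.74 in Control. Replicate arrays correlated across genes at 0.995 to 0.996 in IRAK4(KD) and at 0.994 to 0.997 in Control. The 5th percentile of the values lay between 4.97 and 5.10 on these 6 arrays, and the size of a difference is uncertain for a gene that low in either group. The array carried 0 probe sets for human IRAK genes, so the amount of the introduced RNA was not measured. The values are averages over a culture, in which a change in every cell and a change in the share of cells cannot be told apart.

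IRAK4(KD) cells differed from Control cells in 967 of 5449 genes (17.7%), at an adjusted p under 0.05 in limma's moderated test, of which 640 were higher (11.7% of all genes) and 327 lower (6.00%). Most differences were small. The median difference was 0.41 among the genes called higher and -0.55 among those called lower, and 25 of the higher and 61 of the lower genes passed 2-fold. The higher genes made up 66.2% of the calls as deposited, 55.9% (538 higher and 424 lower) after centring each array on its median and 54.7% (495 and 410) after quantile normalization. The median over all genes was 0.07, and 0.03 with either of these scalings, so medians of gene lists are to be read against it. Of the 2644 genes whose 3 IRAK4(KD) arrays did not overlap the 3 Control arrays (48.5% of all genes), 952 were also called. The number of calls depended on single arrays. It was 325 without C3, 438 without C2, 446 without KD2 and 527 without KD1, and 301 genes were called whichever of the 6 arrays was left out. All 15 arrays share 1 estimate of the spread, and without IRAK1 replicate 1, whose correlation with the other IRAK1 arrays was the lowest of the series at 0.968, the count was 1857. Its omission raised the number of calls by more than 1.5 times in 52 of the 79 gene lists used here and lowered it so in 0.

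**Figure D1:**
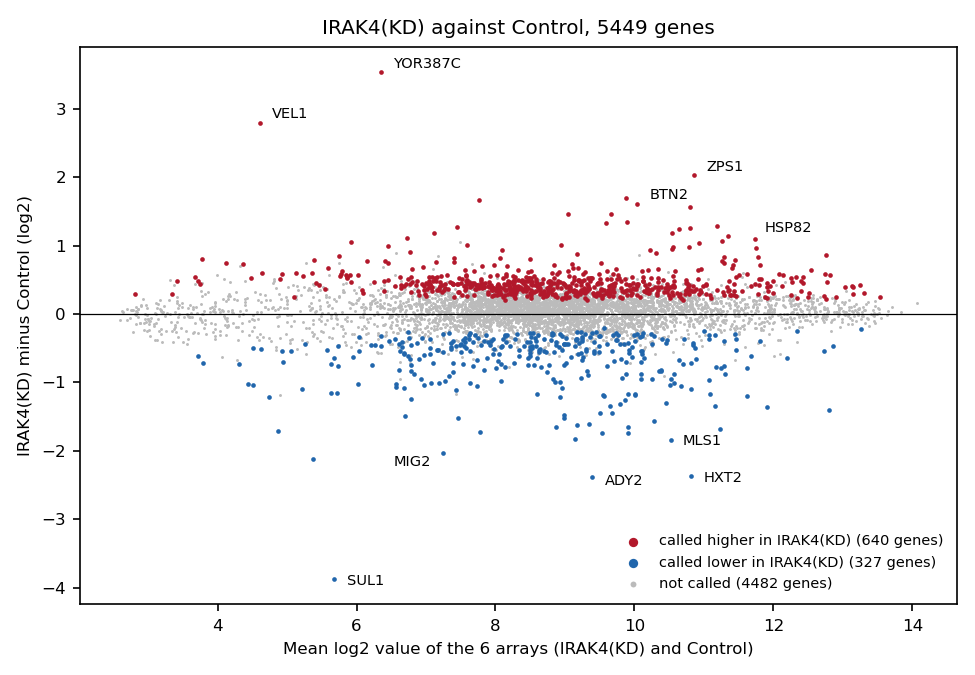
The difference between IRAK4(KD) and Control (log2, vertical axis) is plotted for each gene against its mean log2 value over the 6 arrays (horizontal axis), in red for genes called higher, in blue for genes called lower and in grey for the rest. YOR387C, VEL1 and ZPS1 lie at the top, and SUL1, with a difference of -3.87, at the bottom.

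Chaperones of the cytosol were among the groups with the largest share of higher genes. Of the 12 measured cytosolic Hsp70s and their partners, 7 rose, 0 fell and 5 were not called, with a median of 0.42. Hsp70s bind short exposed stretches of unfolded proteins and release them with ATP. SSA4, an Hsp70 that unstressed cells make little of, had 9.79, 9.79 and 9.75 in IRAK4(KD) cells against 8.24, 8.34 and 8.36 in Control cells. Each IRAK4(KD) array lay more than 1 above each Control array, and the difference was 1.46 ± 0.11 (SE, adjusted p = 2e-06). SSA1, a main Hsp70 of growing cells, had 13.11, 13.36 and 13.08 in IRAK4(KD) cells against 12.31, 12.34 and 12.31 in Control cells, a difference of 0.86 ± 0.10. SSA2, nearly identical to SSA1 in sequence, differed by 0.58 ± 0.07, and cross-hybridisation between such copies was not tested. FES1, which exchanges nucleotides on Hsp70, had 11.35, 11.27 and 11.21 against 10.43, 10.32 and 10.13, a difference of 0.98 ± 0.10. SSE2, a further exchange factor of the Hsp110 type, rose by 0.65 ± 0.13. Its copy SSE1 rose by 0.25 ± 0.07, a call lost on leaving out any of 5 single arrays, with values from 0.23 to 0.27, and after quantile normalization, at 0.16. The Hsp70s that sit on the ribosome and meet the chain as it leaves it did not pass the test. SSB1 differed by 0.07 ± 0.07, SSB2 by 0.20 ± 0.08 and SSZ1 by 0.17 ± 0.11, and their J-protein ZUO1 by -0.17 ± 0.10.

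J-proteins bring clients to Hsp70 and make it use ATP. Of 12 in the cytosolic list, 3 rose and 2 fell, with a median of 0.11. APJ1 had 8.60, 8.66 and 8.40 in IRAK4(KD) cells against 7.64, 7.80 and 7.44 in Control cells, a difference of 0.93 ± 0.10. SIS1, which is essential and works with Hsp104 on aggregates, differed by 0.83 ± 0.13. YDJ1, the most general member, differed by 0.58 ± 0.13, and lost its call without C3 (0.53) or KD2 (0.52). The members that fell were JJJ1, which acts in making the large ribosomal subunit, at -0.61 ± 0.16, and XDJ1 at -0.27 ± 0.08. Neither was called without C2 (-0.60 and -0.28), without C3 (-0.53 and -0.22), or without KD1 (-0.57 and -0.25) or 2 (-0.54 and -0.27), and XDJ1 was also not called without KD3 (-0.28).

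Hsp90 completes the folding of kinases and receptors, and its co-chaperones load, time or release these clients. Of 14 members, 8 rose and 2 fell, with a median of 0.27, and without C3 the counts were 5 and 1. The lower count was also 1 without C2 or any 1 of the IRAK4(KD) arrays. Both Hsp90 genes rose. HSP82, the more inducible copy, had 12.33, 12.36 and 12.14 in IRAK4(KD) cells against 11.28, 11.27 and 10.99 in Control cells, a difference of 1.10 ± 0.13 (adjusted p = 6.04e-05). HSC82, the more constant copy, had 12.91, 12.87 and 12.82 against 12.28, 12.20 and 12.18, a difference of 0.65 ± 0.07. In both genes all IRAK4(KD) arrays were above all Control arrays, and cross-hybridisation between these copies was not tested. The ATPase activator HCH1 rose by 0.74 ± 0.11 and STI1, which bridges Hsp70 and Hsp90, by 0.72 ± 0.10. TAH1, a subunit of the R2TP complex that assembles snoRNA particles and other machines with Hsp90, went the other way. It had 9.82, 9.93 and 10.15 in IRAK4(KD) cells against 10.65, 10.83 and 10.92 in Control cells, a difference of -0.83 ± 0.12, with no overlap.

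Of the 8 genes for disaggregation and sorting of damaged protein, 5 rose and 0 fell, with a median of 1.03, and the same 5 were called in each of the 6 leave-one-out fits. HSP42, a small heat shock protein that gathers misfolded protein into deposits, had 11.57, 11.45 and 11.29 in IRAK4(KD) cells against 10.35, 10.21 and 9.96 in Control cells, a difference of 1.26 ± 0.11. CUR1, a sorting factor, had 7.93, 8.29 and 8.02 against 6.89, 6.87 and 6.67, a difference of 1.27 ± 0.12. In both genes the lowest IRAK4(KD) array stood clear of the highest Control array. HSP104, the ring-shaped disaggregase, differed by 0.79 ± 0.10, BTN2, the related sorting factor, by 1.61 ± 0.18 and the small heat shock protein HSP26 by 1.56 ± 0.23. In the CCT chaperonin and prefoldin, the ring and its loader that fold actin and tubulin, 1 of 15 members rose and 0 fell, with a median of 0.09, and 0 rose in each leave-one-out fit and after centring or quantile normalization, both of which gave 1 lower gene.

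Mitochondrial chaperones rose in 5 of 11 members, with 0 lower and a median of 0.23, and in 3 without C2, C3 or KD2. MDJ1, the J-protein of the matrix, had 10.75, 10.82 and 10.69 in IRAK4(KD) cells against 9.95, 9.97 and 9.66 in Control cells, a difference of 0.89 ± 0.09 with no overlap. HSP78, the matrix disaggregase, rose by 0.64 ± 0.11 and HSP60, the matrix chaperonin, by 0.57 ± 0.10. HSP10, the lid of that chaperonin, rose by 0.25 ± 0.07, and was not called without any 1 of the 6 arrays (0.23 to 0.28) nor after centring (0.21) or quantile normalization (0.18). SSC1, the matrix Hsp70, rose by 0.45 ± 0.11, and was not called without C2 (0.41), C3 (0.42) or KD2 (0.40). In the endoplasmic reticulum, where KAR2 is the Hsp70, 4 of 19 folding and unfolded protein response genes rose and 0 fell, with a median of 0.13. In all 21.1% were called, against 17.7% of all genes. KAR2 had 12.21, 12.23 and 12.05 in IRAK4(KD) cells against 11.60, 11.43 and 11.30 in Control cells and differed by 0.72 ± 0.11. The count was 1 without C2 or KD2, 2 without C3 or KD3, and 2 after centring or quantile normalization. The regulators themselves did not pass the test at the RNA level. HSF1 differed by -0.04 ± 0.08 and HAC1, the activator of the unfolded protein response, by -0.08 ± 0.19.

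**Figure D2:**
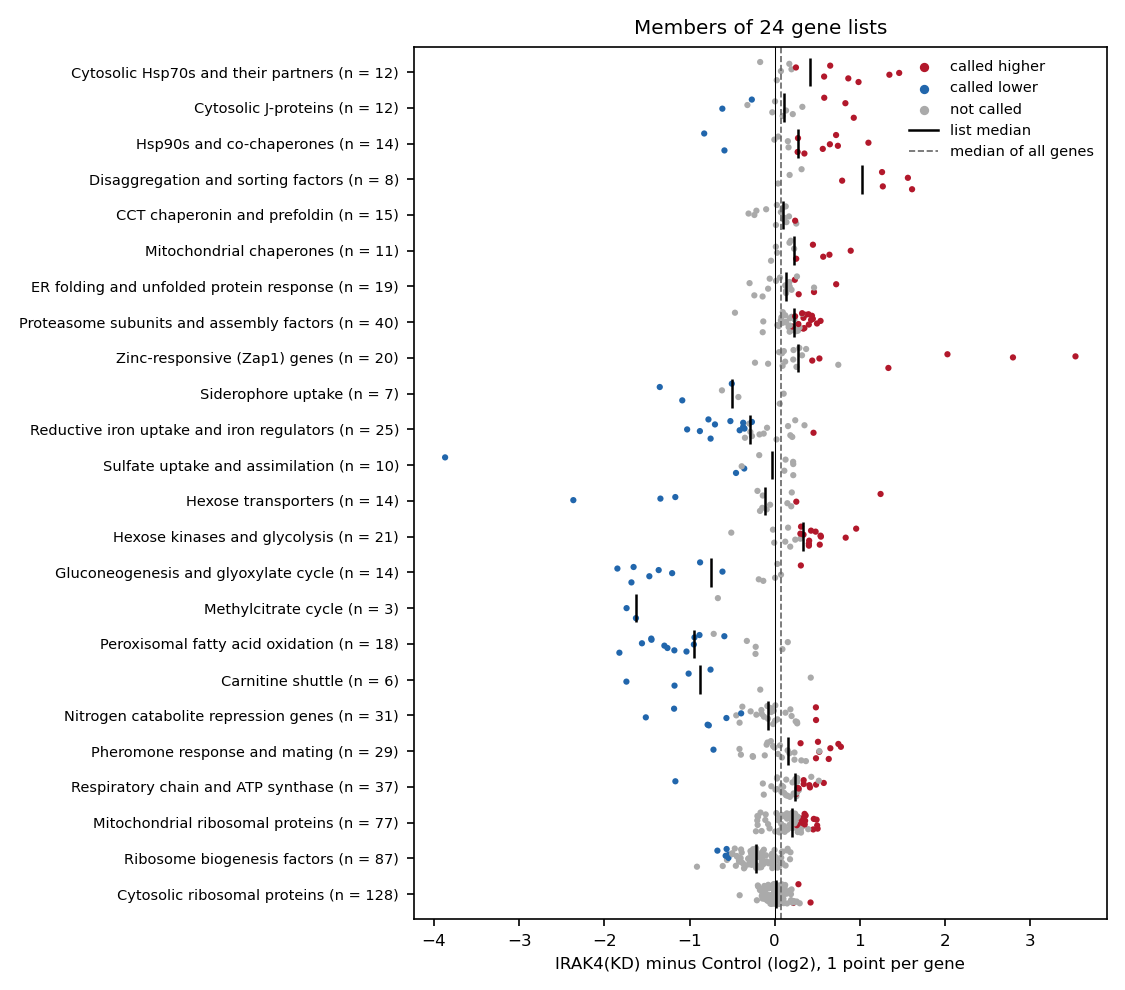
Each point is a gene, placed by its difference between IRAK4(KD) and Control (log2, horizontal axis) in the row of its list, in red where called higher, blue where called lower and grey otherwise. Black bars mark list medians and the dashed line the median of all genes at 0.07. The disaggregation factors (median 1.03) lie right of it and the genes of fatty acid oxidation (median -0.95) left of it.

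The proteasome, which degrades ubiquitin-tagged proteins, had 15 higher and 0 lower genes among 40 subunits and assembly factors, and its members spread from -0.47 to 0.54 with a median of 0.22. RPN14, a chaperone of proteasome assembly, had 8.62, 8.37 and 8.66 in IRAK4(KD) cells against 8.06, 8.08 and 7.89 in Control cells, a difference of 0.54 ± 0.09. RPN5 of the lid rose by 0.45 ± 0.08 and the ATPase RPT2 of the base by 0.44 ± 0.10. The arrays of these 3 genes did not overlap between the groups. The count depended on single arrays and was 5 without C3, 8 without C2, 8 without KD1, 8 without KD2 and 22 without IRAK1 replicate 1. Of 19 genes for ubiquitin conjugation and Cdc48, 3 rose and 0 fell, in all 15.8% called against 17.7% of all genes, among them UBC4, a ubiquitin-conjugating enzyme for short-lived and abnormal proteins, at 0.46 ± 0.07 (12.44, 12.56 and 12.52 against 12.03, 12.01 and 12.09). Without C2, C3 or KD2 that count was 1, and 2 without KD1 or KD3. Among 32 autophagy genes 5 rose and 0 fell (median 0.13), near the share over all genes. The count was 0 without C3 or KD2, 2 without KD1 and 3 without C2.

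Zinc genes held the highest differences of the comparison. Of 20 measured targets of Zap1, the zinc-sensing activator, 6 rose, 0 fell and 14 were not called, with a median of 0.27. YOR387C had 7.26, 8.42 and 8.65 in IRAK4(KD) cells against 4.83, 4.53 and 4.38 in Control cells, a difference of 3.53 ± 0.27 (adjusted p = 1.79e-06). VEL1, its close copy, for which cross-hybridisation was not tested, had 5.01, 6.43 and 6.57 against 2.82, 3.43 and 3.36, a difference of 2.80 ± 0.33. In both genes KD1 was the lowest of its group by more than 1 and still above every Control array, and the Control values are at the low end of the scale. ZPS1, which encodes a surface protein that fungi make under zinc shortage, had 11.50, 12.13 and 12.002 against 10.04, 9.64 and 9.86, a difference of 2.03 ± 0.15. ADH4, an alcohol dehydrogenase made under zinc shortage, had 9.98, 10.37 and 10.43 against 8.96, 8.97 and 8.84, a difference of 1.34 ± 0.12. There too KD1 was the lowest of the 3. PIS1, the phosphatidylinositol synthase, rose by 0.53 ± 0.12. The transporter of the plasma membrane and the regulator did not pass the test: ZRT1, named after its value was seen, had 12.10, 12.28 and 12.16 against 11.88, 12.01 and 11.99, a difference of 0.22 ± 0.10, and ZAP1 differed by 0.32 ± 0.13.

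Copper genes rose in 3 of 9 members, with 0 lower and a median of 0.08. FRE7, a surface reductase of the copper regulon, had 7.13, 7.13 and 7.58 in IRAK4(KD) cells against 6.49, 6.00 and 6.03 in Control cells, a difference of 1.11 ± 0.20. CTR1, the high-affinity copper transporter, had 11.08, 10.99 and 11.06 against 10.18, 9.99 and 10.03, a difference of 0.98 ± 0.19. Neither gene overlapped between the groups. The third, the metallothionein CUP1-1, differed by 0.25 ± 0.08, and this call was lost without any 1 of 5 arrays (0.21 to 0.25) and after centring (0.21) or quantile normalization (0.26).

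Iron uptake genes held mainly lower calls. Of 7 genes for siderophores, the iron carriers that yeast takes up from other microbes, 3 fell and 0 rose, with a median of -0.50. ARN2, a siderophore transporter, had 8.33, 8.65 and 8.25 in IRAK4(KD) cells against 9.41, 9.63 and 9.44 in Control cells, a difference of -1.09 ± 0.13. SIT1, a further transporter, had 10.62, 10.61 and 10.62 against 11.005, 11.17 and 11.19, a difference of -0.50 ± 0.10. FIT3, a wall mannoprotein that retains siderophores, fell by 1.35 ± 0.32, and was not called without C3 (-1.30). All 3 genes were lower on every IRAK4(KD) array than on every Control array. The other members were ENB1 at -0.43 ± 0.15, FIT2 at -0.62 ± 0.48, ARN1 at 0.06 ± 0.14 and FIT1 at 0.11 ± 0.26, none of them called. Of 25 genes of reductive uptake and iron regulation, 11 fell and 1 rose, with a median of -0.29. FRE3, a reductase that acts on siderophore iron, had 6.43, 6.30 and 6.43 against 7.23, 7.29 and 7.28, a difference of -0.88 ± 0.12. AFT2, which activates iron genes beside AFT1, had 5.91, 6.00 and 5.62 against 6.53, 6.67 and 6.59, a difference of -0.75 ± 0.09, whereas AFT1 differed by 0.02 ± 0.19. The higher count was 1 without KD1 and 0 in the other leave-one-out fits. The number that fell was 4 without C2 or KD1, 5 without C3 and 7 without KD2 or KD3.

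Sulfur uptake was marked by SUL1, the high-affinity sulfate transporter, whose fall was the largest among the called genes. SUL1 had 3.59, 3.88 and 3.76 in IRAK4(KD) cells against 7.05, 7.65 and 8.13 in Control cells, a difference of -3.87 ± 0.24 (adjusted p = 3.27e-07). The IRAK4(KD) values lie at the low end of the scale. SUL2, the second sulfate transporter, had 6.13, 6.16 and 6.33 against 6.39, 6.38 and 6.38, and its difference of -0.18 ± 0.09 did not pass the test. Of the 10 genes of sulfate uptake and assimilation, 3 fell and 0 rose, with a median of -0.03. The other 2 were MET10, a subunit of sulfite reductase, at -0.45 ± 0.10, and MET16, which reduces activated sulfate, at -0.36 ± 0.10. MET16 was not called without C2 (-0.38), C3 (-0.30) or KD1 (-0.26). Of the 6 sulfur regulators 3 fell, and 1 without C3. MET31, a DNA-binding partner of the activator MET4, had 7.93, 8.09 and 8.19 against 8.46, 8.63 and 8.71, a difference of -0.53 ± 0.11. MET28, a cofactor of the same complex, differed by -0.66 ± 0.15 (-0.54 and not called without C3). MET4 itself differed by -0.43 ± 0.12, and lost its call without C2 (-0.45), C3 (-0.36), KD2 (-0.42) or KD3 (-0.38). Among 20 genes of methionine, cysteine and the methyl cycle 2 rose and 2 fell. SAM2, which makes S-adenosylmethionine, rose with 11.39, 11.63 and 11.36 against 10.70, 10.22 and 10.33, a difference of 1.04 ± 0.15, and its close copy SAM1 differed by 0.02 ± 0.11. The lower count was 1 without C1 and 0 in the other leave-one-out fits.

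Genes for making sugar from acetate and other small carbon compounds fell together. The list of gluconeogenesis with the glyoxylate cycle held 14 genes, of which 8 were lower and 1 higher, with a median of -0.74, and 8 were lower in each of the 6 leave-one-out fits. MLS1, the malate synthase of the glyoxylate cycle, had 9.72, 9.54 and 9.53 in IRAK4(KD) cells against 11.46, 11.47 and 11.41 in Control cells, a difference of -1.85 ± 0.09 (adjusted p = 1.66e-08). PCK1, which makes phosphoenolpyruvate and so opens gluconeogenesis, had 9.27, 8.96 and 8.99 against 10.68, 10.74 and 10.78, a difference of -1.66 ± 0.11. FBP1, the phosphatase that ends the reversal of glycolysis, had 8.37, 8.16 and 8.22 against 9.77, 9.67 and 9.71, a difference of -1.47 ± 0.11. In MLS1, PCK1 and FBP1 the arrays of a group lay close together and the groups far apart. The 1 higher member, PYC1, a pyruvate carboxylase named after its value was seen, differed by 0.31 ± 0.10, and the higher count was 0 without C2 or C3, without KD1 or KD2 and after quantile normalization.

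MDH2, the malate dehydrogenase of the cytosol, had 11.24, 11.37 and 11.08 against 12.48, 12.58 and 12.71, a difference of -1.36 ± 0.10. ACS1, an acetyl-CoA synthetase, had 10.51, 10.44 and 10.22 against 11.91, 12.13 and 12.17, a difference of -1.68 ± 0.14. Among 13 regulators of non-fermentable carbon use, 4 rose and 1 fell. The 1 lower gene was SIP4, an activator that Cat8 switches on, with 8.07, 7.47 and 7.20 against 8.72, 8.48 and 8.49, a difference of -0.99 ± 0.17. CAT8, named after its value was seen, had 9.29, 9.39 and 9.56 against 8.996, 9.13 and 9.05, and its difference of 0.35 ± 0.12 was not called. The CAT8 arrays did not overlap, and it was called higher with the 6 arrays alone and without IRAK1 replicate 1. HAP3, a subunit of the activator of respiration genes, rose by 0.59 ± 0.12. The count of 4 was 2 without C3 or KD2.

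The Ato family, carriers of acetate and ammonium, fell in 2 of its 3 members. ADY2 had 8.44, 8.17 and 7.9996 in IRAK4(KD) cells against 10.30, 10.66 and 10.78 in Control cells, a difference of -2.38 ± 0.20. ATO3 had 10.94, 10.89 and 10.77 against 11.67, 11.82 and 11.72, a difference of -0.87 ± 0.14. ATO2 differed by -0.59 ± 0.27 and was not called. The methylcitrate cycle, which clears propionyl-CoA, has 3 genes, all of them lower on every IRAK4(KD) array. CIT3 had 8.37, 8.30 and 8.38 against 9.71, 10.10 and 10.14, a difference of -1.63 ± 0.26. ICL2 differed by -1.74 ± 0.34 and was called, and PDH1 differed by -0.67 ± 0.26 and was not. ADH2, the alcohol dehydrogenase that consumes ethanol, had 12.07, 12.06 and 12.15 against 13.29, 13.55 and 13.64, a difference of -1.40 ± 0.12, whereas ADH1, which makes ethanol, differed by 0.09 ± 0.20.

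Fatty acids are broken down in the yeast peroxisome, and the acetyl groups leave it partly as carnitine esters. Of 18 genes of peroxisomal fatty acid oxidation, 12 fell and 0 rose, with a median of -0.95, and between 10 and 12 fell in each leave-one-out fit. CTA1, the peroxisomal catalase, had 8.23, 8.20 and 8.26 in IRAK4(KD) cells against 9.76, 10.14 and 10.25 in Control cells, a difference of -1.82 ± 0.18. POX1, the acyl-CoA oxidase of the first step, had 8.69, 8.73 and 8.94 against 10.002, 10.32 and 10.39, a difference of -1.45 ± 0.21. In both genes C1 was the lowest Control array and lay above all IRAK4(KD) arrays. FOX2, the enzyme of the next steps, differed by -1.30 ± 0.17, POT1, the thiolase that ends the cycle, by -1.45 ± 0.20, and the peroxisomal lipase LPX1 by -1.56 ± 0.31.

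Of the 6 genes of the carnitine shuttle, 4 fell and 0 rose, with a median of -0.88. CRC1, the carnitine carrier of the mitochondrial membrane, had 9.16, 8.88 and 9.06 in IRAK4(KD) cells against 10.73, 10.74 and 10.85 in Control cells, a difference of -1.74 ± 0.29. The acetyltransferases CAT2, YAT1 and YAT2 differed by -1.18 ± 0.19, -1.01 ± 0.19 and -0.75 ± 0.19. YAT2 was not called without C2 (-0.74), C3 (-0.75) or KD2 (-0.69). The plasma membrane permeases AGP2 and HNM1 were not called, at -0.17 ± 0.24 and 0.42 ± 0.18. Genes that build the peroxisome itself went both ways, with 3 higher and 4 lower of 25 and a median of -0.04. PEX21, a partner of the import receptor Pex7, had 8.29, 8.31 and 8.35 against 9.001, 9.27 and 9.24, a difference of -0.85 ± 0.10. Without C3 or KD2 both counts were 1, the counts were 1 higher and 2 lower without KD1, and 1 higher and 3 lower without C2.

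**Figure D3:**
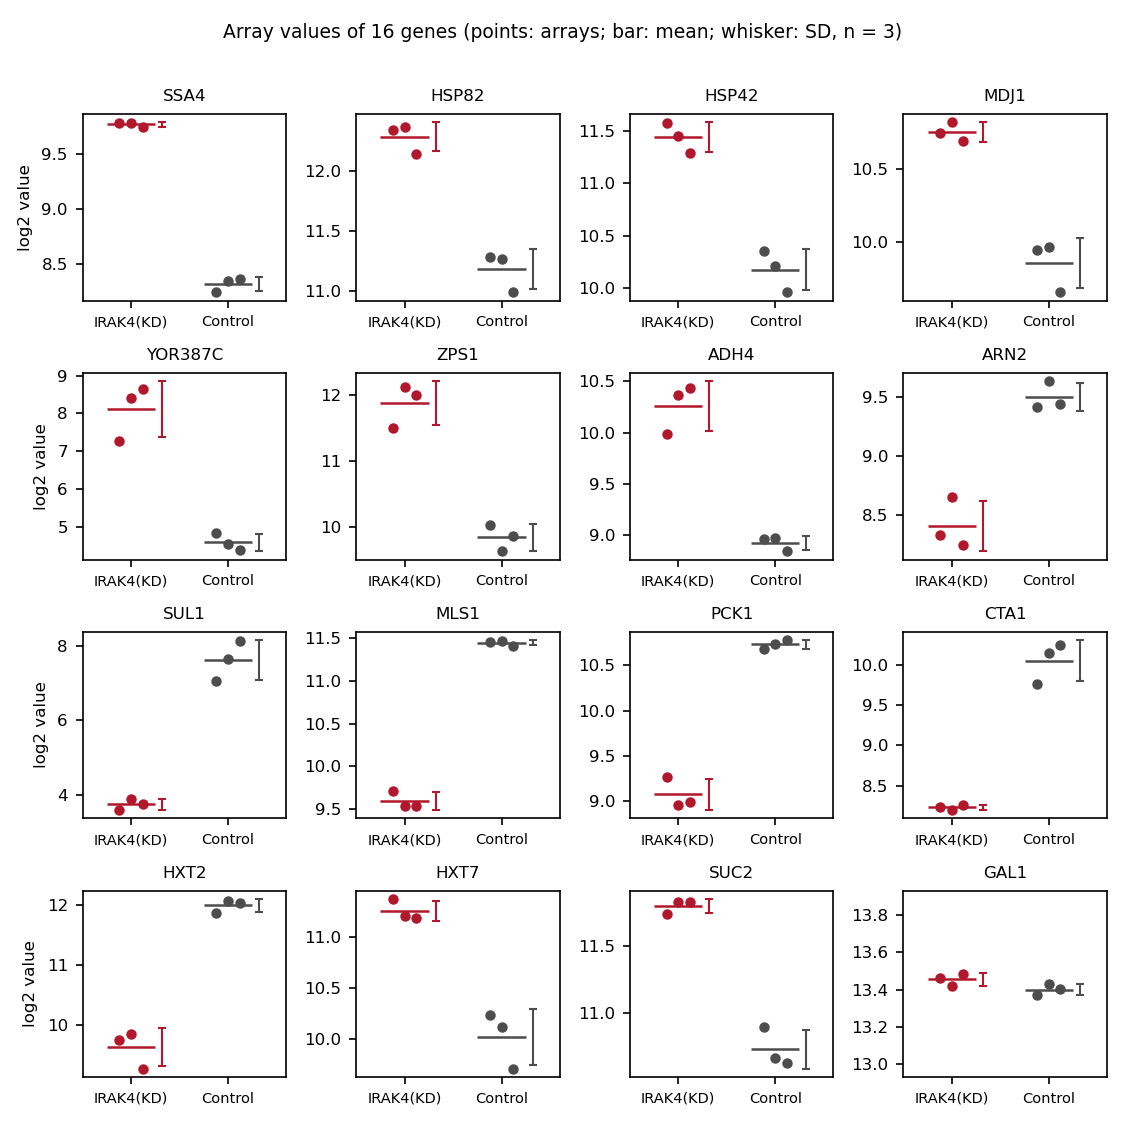
Log2 values are drawn for each array, IRAK4(KD) in red and Control in grey, with a bar at the mean and a whisker for the SD over 3 arrays, on a separate vertical axis for each gene that does not start at 0. Apart from GAL1, no gene shown has overlapping groups. SUL1, at 3.59 to 3.88 in IRAK4(KD) cells and 7.05 to 8.13 in Control cells, has the largest gap.

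Glucose sensing and transport changed in a mixed way. MIG2, a repressor made when glucose is present, had 6.64, 6.06 and 5.99 in IRAK4(KD) cells against 8.02, 8.38 and 8.41 in Control cells, a difference of -2.04 ± 0.24. STD1, which sets hexose transporter genes through the repressor Rgt1, had 7.49, 7.43 and 7.28 against 8.04, 8.14 and 8.02, a difference of -0.67 ± 0.12. REG2, a regulatory subunit of the phosphatase Glc7, differed by -0.69 ± 0.10. With these 3 lower genes, 5 of the 25 genes of glucose sensing and repression rose. The lower count was 3 in all leave-one-out fits, and the higher count was 1 without C2, C3 or KD2, and 2 without KD1. NRG1, a repressor of glucose-repressed genes, rose by 0.46 ± 0.09 (7.79, 7.71 and 7.69 against 7.20, 7.39 and 7.22).

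Among 14 hexose transporters 2 rose and 3 fell, with a median of -0.12. HXT7, a high-affinity transporter, had 11.38, 11.21 and 11.20 in IRAK4(KD) cells against 10.24, 10.11 and 9.70 in Control cells, a difference of 1.24 ± 0.17. HXT6 is nearly identical to HXT7 and had no probe set of its own here, so the signal may hold both. The low-affinity carrier HXT3 had 9.22, 9.001 and 8.7043 against 10.27, 10.30 and 10.39, a difference of -1.34 ± 0.16. HXT2 had 9.76, 9.86 and 9.28 against 11.88, 12.07 and 12.05, a difference of -2.36 ± 0.29, and HXT4 differed by -1.17 ± 0.12. HXT17, the second higher one, differed by 0.25 ± 0.08 at the low end of the scale. Its call was lost in 5 of the 6 leave-one-out fits and after centring (0.21) or quantile normalization (0.22). The same held after averaging the probe sets of the gene (0.15) and with the 6 arrays alone. SUC2, the invertase that splits sucrose and raffinose outside the cell, had 11.74, 11.83 and 11.83 against 10.90, 10.66 and 10.63, a difference of 1.07 ± 0.11.

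Hexose kinases and glycolytic enzymes rose in 13 of 21 members, with 0 lower and a median of 0.34. HXK1, a hexokinase, had 12.23, 12.27 and 12.09 in IRAK4(KD) cells against 11.59, 11.35 and 11.15 in Control cells, a difference of 0.83 ± 0.11. PFK1, a subunit of phosphofructokinase, had 11.74, 11.86 and 11.58 against 11.38, 11.19 and 10.9997, a difference of 0.54 ± 0.12. All IRAK4(KD) arrays were above all Control arrays in both. HXK2, the hexokinase that also takes part in glucose repression, differed by 0.54 ± 0.14, and was not called without C2 (0.53), C3 (0.47) or KD2 (0.51). Without C3 or KD2 the count was 7. The pentose phosphate pathway (11 genes) and trehalose metabolism (7 genes) had 0 calls in this fit, with medians of 0.12 and 0.20. Without IRAK1 replicate 1 the first had 4 higher and 1 lower and the second 2 higher, and without KD1 the first had 1 lower.

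Genes of nitrogen and aromatic amino acid metabolism held more lower than higher calls. Of 31 genes under nitrogen catabolite repression, which are kept off while good nitrogen sources last, 6 fell and 2 rose, with a median of -0.08. GAP1, the general amino acid permease, had 8.20, 8.42 and 8.08 in IRAK4(KD) cells against 9.41, 9.89 and 9.93 in Control cells, a difference of -1.51 ± 0.15. PUT4, the proline permease, had 9.32, 9.40 and 9.54 against 10.37, 10.69 and 10.76, a difference of -1.18 ± 0.21. The arginine-degrading enzymes CAR1 and CAR2 differed by -0.77 ± 0.17 and -0.79 ± 0.16. The 2 higher genes were not called without C2 or any 1 of the IRAK4(KD) arrays, and 1 was called without C1 or C3. Of 14 aromatic amino acid genes 5 fell and 0 rose, with a median of -0.17, and 3 fell in each leave-one-out fit. ARO9, an aromatic aminotransferase, had 10.14, 10.02 and 10.27 against 11.17, 11.19 and 11.24, a difference of -1.06 ± 0.14. ARO10, the decarboxylase that follows it, differed by -1.04 ± 0.16.

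Serine and glycine genes gave the contrast of CHA1 and GCV2. CHA1, the catabolic serine and threonine deaminase, had 8.52, 8.73 and 8.52 in IRAK4(KD) cells against 6.97, 6.93 and 6.89 in Control cells, a difference of 1.66 ± 0.36. GCV2, the glycine decarboxylase, had 9.92, 9.95 and 9.94 against 10.78, 10.78 and 10.75, a difference of -0.84 ± 0.13. Neither overlapped between the groups. Within the list of 17 genes of serine, threonine and glycine turnover 2 rose and 1 fell, shares near those over all genes, and 2 fell without C1 or KD3. The 7 genes of histidine synthesis had 0 calls and a median of -0.16, with 1 higher without C1 or KD3, and 1 higher and 2 lower without IRAK1 replicate 1. GCN4, the activator of amino acid synthesis, had 13.11, 13.09 and 13.00 against 13.07, 13.07 and 13.08, with overlapping arrays.

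Vitamin genes gave calls in both directions. BIO3 and BIO4 make biotin, and BIO5 imports a precursor of it. BIO5 had 6.61, 6.62 and 6.48 in IRAK4(KD) cells against 7.32, 7.54 and 7.89 in Control cells, a difference of -1.01 ± 0.18, and BIO3 and BIO4 differed by -0.62 ± 0.13 and -0.56 ± 0.12. These are all 3 lower genes of the 18 in biotin and NAD synthesis, where 4 rose. Without C2, C3 or KD2 that higher count was 1, and it was 2 without KD1 or KD3. Of 19 genes of thiamine and pyridoxine 5 rose and 2 fell, with a median of 0.0040. The higher count was 1 without C2, C3, KD1 or KD2, 2 without KD3 and 3 without C1 and after either scaling, and the lower count was 1 in each leave-one-out fit. The lower genes were SNO1 and SNZ1, which act together in making pyridoxine. SNO1 had 9.16, 9.15 and 8.58 against 10.18, 10.16 and 10.15, a difference of -1.20 ± 0.24. SNZ1 differed by -1.09 ± 0.35, a call lost on leaving out any 1 of the 6 arrays, with values from -1.22 to -0.88.

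In the respiratory chain and ATP synthase 9 of 37 genes rose and 1 fell, with a median of 0.24, and 3 rose after centring or quantile normalization. The higher count was 1 without C2, C3, KD1 or KD2, and 4 without KD3, against 20 without IRAK1 replicate 1. COX9, a subunit of cytochrome oxidase, had 12.15, 12.25 and 12.06 in IRAK4(KD) cells against 11.74, 11.78 and 11.72 in Control cells, a difference of 0.41 ± 0.08. The lower gene was NDE2, an outer NADH dehydrogenase of mitochondria, with 8.20, 7.94 and 7.92 against 8.95, 9.38 and 9.22, a difference of -1.17 ± 0.14. Its copy NDE1 had 12.11, 12.29 and 12.09 against 12.002, 11.91 and 11.79, a difference of 0.26 ± 0.19 that was not called. Of 17 genes of the TCA cycle 4 rose and 1 fell. CIT1, the mitochondrial citrate synthase, rose by 0.47 ± 0.10 and SDH2, the iron-sulfur subunit of succinate dehydrogenase, by 0.51 ± 0.10. MAE1, the malic enzyme, had 10.0008, 9.97 and 10.18 against 10.79, 11.04 and 11.16, a difference of -0.95 ± 0.19. The higher count of that list was 2 without C2, C3, KD1 or KD2.

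Mitochondrial ribosomal proteins rose in 16 of 77 genes, with 0 lower and a median of 0.20. In all 20.8% were called, against 17.7% of all genes in either direction and 11.7% higher. MRPL1, a protein of the large subunit, had 9.74, 9.67 and 9.70 in IRAK4(KD) cells against 9.27, 9.29 and 9.19 in Control cells, a difference of 0.45 ± 0.09. The count was 1 without C3, 4 without C2 or KD2, 7 without KD3, 8 without KD1 and 31 without IRAK1 replicate 1. Cytosolic ribosomal proteins stayed close to the median of all genes, with 3 higher and 0 lower of 128 and a median of 0.01. RPL15B, a protein of the large subunit, was the largest of the 3, with 9.27, 9.38 and 9.44 in IRAK4(KD) cells against 8.88, 8.95 and 8.99 in Control cells, a difference of 0.42 ± 0.09. That count was 1 without C2, C3, KD2 or KD3, and after either scaling. Ribosome biogenesis factors, which process and assemble ribosomal RNA, had 5 lower and 0 higher calls of 87. The lower share was near the 6.00% over all genes, but in all 5.75% were called against 17.7% of all genes. Their median was -0.22, and 52 of them were lower on all IRAK4(KD) arrays than on all Control arrays, as were 864 of all genes (15.9%). The lower count was 0 without C3 or KD1, 1 without KD2 or KD3, 2 without C2 and 37 without IRAK1 replicate 1.

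Lipid genes rose in small numbers. Of 29 genes of ergosterol and isoprenoid synthesis 8 rose and 0 fell, with a median of 0.16. ERG12, the mevalonate kinase, had 10.17, 10.18 and 10.15 in IRAK4(KD) cells against 9.83, 9.80 and 9.73 in Control cells, a difference of 0.38 ± 0.07. The count was 1 without C3, 3 without KD2, 4 without C2 or KD1 and 5 without KD3. Among 19 anaerobic and heme-regulated genes 6 rose and 0 fell. HEM13, an oxygen-dependent enzyme of heme synthesis that cells raise when oxygen or heme is low, had 8.80, 8.87 and 8.82 against 8.25, 8.20 and 8.14, a difference of 0.63 ± 0.09. That count was 2 without C3, 3 without C2 or KD2 and 4 without KD1 or KD3.

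Mating genes rose in 8 of 29 members, with 1 lower and a median of 0.15, and the higher count was 6 without C1 and 5 in the other leave-one-out fits. The lower count was 1 without KD3 and 0 in the others. Strain YPH499 is of mating type a. Of the 7 markers of mating type a 4 rose and 0 fell, with a median of 0.52, and the summed linear signal of the 7 was 4713 to 4936 in IRAK4(KD) cells and 3090 to 3578 in Control cells. STE2, the receptor for alpha factor, had 9.90, 9.99 and 9.77 against 9.35, 9.01 and 9.07, a difference of 0.75 ± 0.12. BAR1, the protease that destroys alpha factor, had 7.93, 7.94 and 8.16 against 7.27, 7.45 and 7.41, a difference of 0.63 ± 0.13. STE6, which exports a-factor, had 10.04, 9.99 and 9.97 against 9.62, 9.45 and 9.41, a difference of 0.51 ± 0.08. These genes did not overlap between the groups. MFA1, a gene for a-factor, differed by 0.52 ± 0.15 and was not called in 5 of the 6 leave-one-out fits (0.43 to 0.57) nor after quantile normalization (0.47). MFA2, AGA2 and ASG7 were not called, at 0.52 ± 0.21, 0.31 ± 0.16 and 0.23 ± 0.12. With the 6 arrays alone, and also without IRAK1 replicate 1, MFA2 and AGA2 were called higher and ASG7 was not called.

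Of the 4 markers of mating type alpha, 1 was called. STE3 had 6.42, 6.26 and 6.23 in IRAK4(KD) cells against 5.75, 5.58 and 5.89 in Control cells, a difference of 0.57 ± 0.15, and lost its call without C2 (0.49), KD1 (0.51) or KD2 (0.59). The summed signal of the 4 was 320 to 385 in IRAK4(KD) cells and 280 to 337 in Control cells, and MF(ALPHA)1 was at the low end of the scale in both groups, at 3.56 and 3.06. Of the genes that pheromone induces, SST2, which ends the signal, had 6.62, 6.40 and 6.58 against 6.01, 5.92 and 5.34, a difference of 0.78 ± 0.17. PRM5 rose by 0.65 ± 0.09. The lower gene of the mating list was PRM2, at -0.72 ± 0.20. Of the leave-one-out fits, PRM2 was called only without KD3 (-0.92), and the filter at a mean of 5 removed it. PRM7, which is not in that list, was called lower, at -1.65 ± 0.26. FUS1, a standard reporter of the pathway that was named after its value was seen, had 5.27, 5.10 and 5.80 against 5.66, 5.63 and 5.66, with overlapping arrays and a difference of -0.26 ± 0.39. Among 25 meiosis and sporulation genes 3 rose and 1 fell, shares near those over all genes (11.7% and 6.00%). The lower one was IME1, the master activator of meiosis, with 6.28, 6.13 and 5.70 against 7.09, 7.08 and 7.15, a difference of -1.07 ± 0.15. The higher count was 1 without C2 or KD2, and the lower count 2 without C1 or KD1.

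General stress and stationary phase genes, driven in part by Msn2 and Msn4, rose in 8 of 37 members and fell in 2, with a median of 0.13. The higher count was 4 without C3 and 5 without C1 or KD2. The lower count was 1 without C2, C3, KD2 or KD3. YGP1, a secreted glycoprotein of starving cells, had 11.97, 11.98 and 11.79 in IRAK4(KD) cells against 10.78, 10.87 and 10.68 in Control cells, a difference of 1.14 ± 0.10. The wall protein SPI1 had 11.04, 10.80 and 10.32 against 9.13, 9.08 and 8.89, a difference of 1.69 ± 0.16, and KD3 was the lowest of its group. SPG4, a gene needed in stationary phase, had 10.89, 10.51 and 10.38 against 11.35, 11.69 and 11.64, a difference of -0.96 ± 0.16. HSP12, a much used stress reporter and also named after its value was seen, had 13.55, 13.46 and 13.55 against 13.58, 13.60 and 13.58 and was not called, at -0.07 ± 0.07. MSN2 and MSN4 differed by 0.10 ± 0.12 and 0.11 ± 0.08. At the plasma membrane, HSP30 and MRH1 are related proteins of a family that also holds YRO2. YRO2 had 11.92, 11.86 and 11.69 against 10.75, 10.64 and 10.24, a difference of 1.28 ± 0.16. MRH1 rose by 0.58 ± 0.12. HSP30 rose by 1.18 ± 0.26, and was not called without C3 (0.97). PMA1, the proton pump that HSP30 is known to restrain, differed by 0.45 ± 0.14, and was not called without C2 (0.46), C3 (0.36), KD1 (0.39) or KD2 (0.39).

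**Figure D4:**
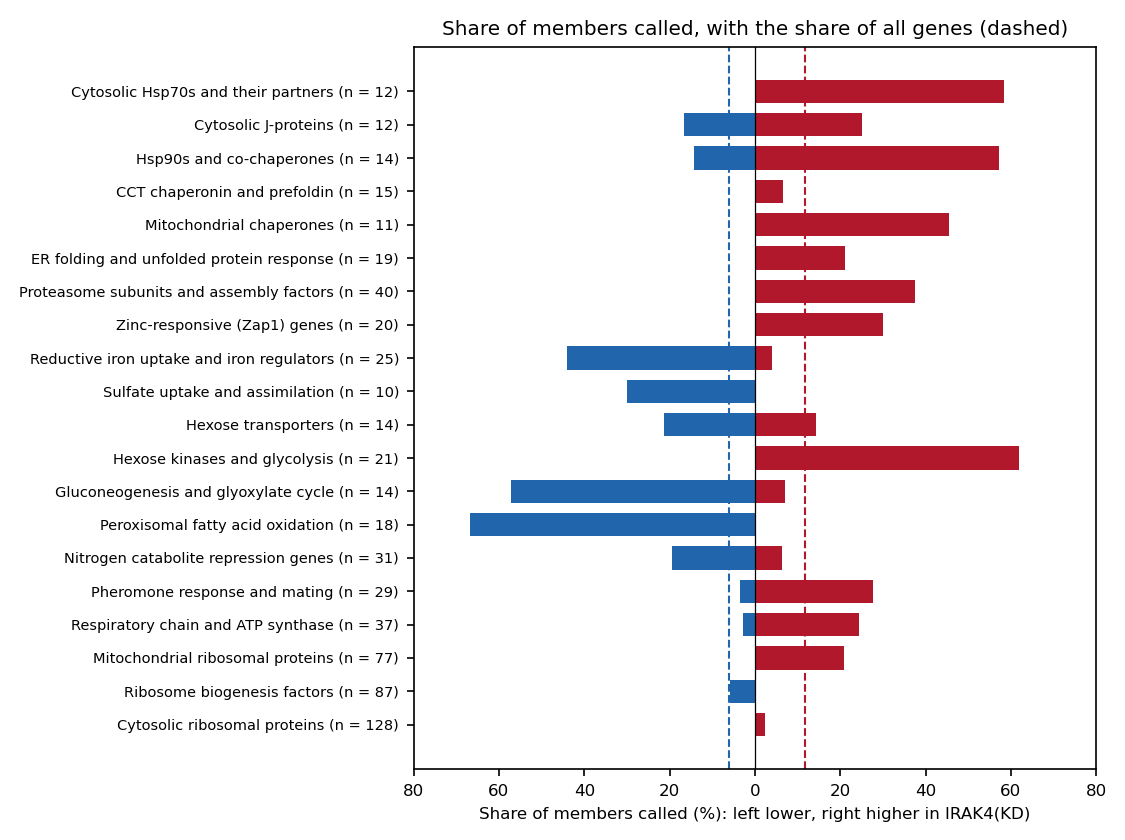
Bars give the share of measured members called higher (red, to the right) and called lower (blue, to the left) in IRAK4(KD), for lists with at least 10 measured genes. Dashed lines mark the same shares over all genes, 11.7% and 6.00%. Fatty acid oxidation, with 12 of 18 members lower, has the longest bar to the left.

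The galactose genes, which the medium induces and which share their control with the plasmid's promoter, differed by -0.31 to 0.42. Of 10 genes 3 rose and 0 fell, with a median of 0.06, in all 30.0% called against 17.7% of all genes. GAL1 had 13.46, 13.42 and 13.49 in IRAK4(KD) cells against 13.37, 13.43 and 13.40 in Control cells, a difference of 0.06 ± 0.07, and GAL10 differed by 0.01 ± 0.07. The regulators GAL3 and GAL80 differed by 0.07 ± 0.13 and 0.10 ± 0.10. None of these 4 was called, and the sign of the GAL10 difference turns after centring (-0.03) or quantile normalization (-0.06). The galactose permease GAL2 rose by 0.39 ± 0.08 and GAL7, the transferase of the pathway, by 0.29 ± 0.06. Both lost their calls without C3 (0.32 and 0.26). GCY1, a reductase under Gal4, rose by 0.42 ± 0.07, and 1 gene was called without C3. The auxotrophic marker genes had 0 calls of 5 (1 without IRAK1 replicate 1). URA3 had 13.83, 13.82 and 13.63 in IRAK4(KD) cells against 13.74, 13.65 and 13.60 in Control cells, a difference of 0.10 ± 0.08.

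The other introduced proteins show which of these values the inactive kinase did not share. The following comparisons use the same 3 IRAK4(KD) arrays, so they are not independent of each other or of the comparison with Control. IRAK4(KD) differed from IRAK4 in 34.9% of genes, from IRAK2 in 26.6% and from IRAK1 in 57.4%. YOR387C, ZPS1 and ADH4 were higher in IRAK4(KD) cells than with each of the other proteins. YOR387C averaged 8.11 in IRAK4(KD) cells against 4.60 in IRAK4, 4.87 in IRAK2 and 4.55 in IRAK1 cells, with adjusted p values of 3.46e-07, 3.78e-06 and 7.71e-08. ZPS1 averaged 11.88 against 9.37, 9.63 and 9.52, and ADH4 10.26 against 9.68, 8.90 and 9.01. The differences of ZPS1 were 2.51 ± 0.15 from IRAK4, 2.25 ± 0.15 from IRAK2 and 2.36 ± 0.15 from IRAK1. Of the 20 Zap1 targets, 8 were higher and 1 lower than in IRAK4, 12 higher and 0 lower than in IRAK2, and 15 higher and 1 lower than in IRAK1.

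HXT7 averaged 11.26 in IRAK4(KD) cells against 10.01, 9.94 and 10.51 in IRAK4, IRAK2 and IRAK1 cells, and INA1, a membrane protein gene of unclear function, 7.70 against 6.52, 6.44 and 5.92. SUC2 averaged 11.80 in IRAK4(KD) cells against 8.79, 11.06 and 11.31, a difference of 3.01 ± 0.11 from IRAK4. STE2 and BAR1 were also higher than in all other groups, STE2 at 9.89 against 8.99, 8.68 and 8.29, and BAR1 at 8.01 against 6.99, 6.83 and 6.23. SAM2 averaged 11.46 against 10.75, 10.20 and 8.37. In the other direction, MDH2 averaged 11.23 in IRAK4(KD) cells against 12.37, 12.55 and 12.77, with differences of -1.14 ± 0.10, -1.32 ± 0.10 and -1.54 ± 0.10. NDE2 averaged 8.02 against 9.72, 9.06 and 11.80, GAP1 8.23 against 9.34, 9.04 and 11.29, and SPG4 10.60 against 11.79, 11.74 and 13.55. Each of these differences of YOR387C, ZPS1, ADH4 and of the genes from HXT7 to SPG4 passed limma's test at an adjusted p under 0.05, also with each array of the compared groups left out in turn. These genes are shown because IRAK4(KD) was the highest or lowest group in them on the same arrays. Their passing is therefore not separate support.

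**Figure D5:**
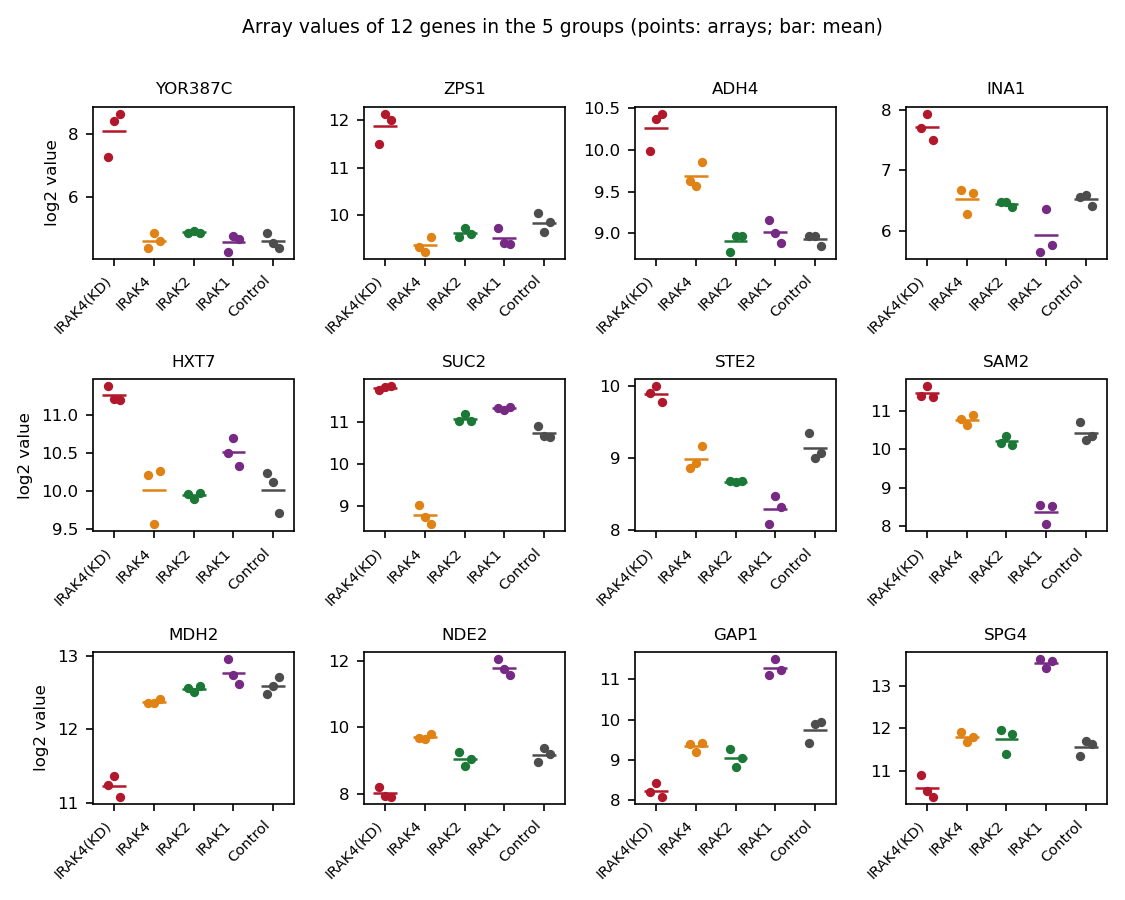
Log2 values of each array are drawn for the 5 groups, with a bar at the group mean and a vertical axis for each gene that does not start at 0. In the upper rows IRAK4(KD) is the highest group, as for YOR387C at 7.26 to 8.65, and in the bottom row the lowest, as for MDH2 at 11.08 to 11.37.

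The chaperones gave another order of the groups. SSA1 averaged 13.18 in IRAK4(KD) cells, against 12.31 in IRAK4, 13.19 in IRAK2 and 13.30 in IRAK1 cells. Its difference was 0.88 ± 0.10 from IRAK4, -0.01 ± 0.10 from IRAK2 and -0.11 ± 0.10 from IRAK1, and of these the first was called, while a p that misses the threshold does not show that the groups were alike. HSP82 averaged 12.28 against 11.75, 12.30 and 12.67. SSA4 averaged 9.77 against 9.47, 10.58 and 12.52, with differences of -0.81 ± 0.11 from IRAK2 and -2.74 ± 0.11 from IRAK1, both called. Of the carbon genes, MLS1 averaged 9.60 in IRAK4(KD) cells against 9.95, 11.90 and 10.51 in IRAK4, IRAK2 and IRAK1 cells, and CTA1 8.23 against 7.77, 9.51 and 12.16. CTA1 did not pass the test against IRAK4 (0.46 ± 0.18) and was called lower than in IRAK2 and IRAK1. Of the 18 genes of fatty acid oxidation, 5 were higher and 2 lower than in IRAK4, 1 higher and 9 lower than in IRAK2, and 0 higher and 18 lower than in IRAK1. Of the 37 general stress genes, 1 was higher and 30 lower than in IRAK4 (median -1.06), 16 higher and 1 lower than in IRAK2 (median 0.36), and 0 higher and 34 lower than in IRAK1 (median -1.49).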

How the data were processed

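RNA of 15 yeast cultures in 5 groups of 3 was hybridised to Affymetrix yeast arrays, 1 array per culture. The deposited values are log2 signals that the authors obtained with GCRMA (version not given in the sources used here), per the submitters' processing notes. The labels leave the meaning of replicate numbers unstated, and p-values measure the spread between these replicates. Of 5716 yeast probe sets, 5498 named 1 gene in the platform annotation and 218 did not and were left out. 12 symbols were updated through RefSeq, and 47 genes had several probe sets, which left 5449 genes. 0 columns of the table were unused.

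Differences were tested with limma 3.58.1 in R 4.3.3, by lmFit on 5 group means over all 15 arrays and eBayes, two-sided, with Benjamini-Hochberg adjustment over 5449 genes. A gene with an adjusted p under 0.05 was called, whatever its fold. The fit was tested on simulated data. A log2 difference from GCRMA is unreliable near the bottom of the scale, and values of different probe sets were not compared.

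Named genes were the 20 highest and 20 lowest called genes and, in each of 79 lists, up to 5 called members with the largest change, together with listed regulators and marker genes. 1571 of 1635 listed genes were measured. Members and lists were chosen with earlier results of these data known. Alternatives were median centring, quantile normalization, a filter at a mean of 5, averaging all probe sets of a gene, and trended and robust spread. Further ones were array weights, the 6 arrays alone, the replicate number as a block and a 2-fold limit. Each array of the compared groups, and IRAK1 replicate 1, was also left out in turn, but no other array.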

Additional observations from a re-analysis of the deposited data

How the results depend on the processing

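Of 296 genes named by the rule, 277 were called in IRAK4(KD) against Control, and 142 of these were called under every alternative that was run for single genes. A gene that the filter at a mean of 5 removed was judged by the other alternatives. Against Control, 967 genes were called, 2683 with array weights, 1728 with the 6 arrays alone and 86 with a 2-fold limit. Leaving out 1 array of IRAK4(KD) or Control, or IRAK1 replicate 1, gave 325 to 1857 genes, the most without IRAK1 replicate 1. Against IRAK4, 1904 were called, 2890 with array weights and 188 with the 2-fold limit, and 1493 to 2548 on leaving out 1 array. Against IRAK2, 1448 were called, 2776 with array weights, 2336 with the 6 arrays alone and 68 with the 2-fold limit, and 799 to 2213 on leaving out 1 array. Against IRAK1, 3126 were called and 538 with the 2-fold limit, and 2777 to 3310 on leaving out 1 array. The 2-fold limit lowers a count by its construction, and the cause of the other changes was not tested. The direction turned for a few genes that were not called. AFT1 was at -0.0188 after centring, -0.0195 after quantile normalization and -0.0493 to 0.1577 over the leave-one-out fits. GAL10 was at -0.0339 after centring, -0.0554 after quantile normalization, -0.0042 with array weights and -0.0165 to 0.0462 over the leave-one-out fits. GCN4 was at 0.0122 with array weights and -0.0274 to 0.0276 over the leave-one-out fits, HSF1 at -0.0877 to 0.0079 and SLT2 at -0.0208 to 0.1710.

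With the replicate number as a block, 861 genes were called against Control over all arrays and 2104 over the 6 arrays, 1823 and 1663 against IRAK4, 1366 and 2666 against IRAK2, and 3073 and 2224 against IRAK1. Same-numbered IRAK4(KD) and Control arrays deviated together with correlations of 0.168, -0.020 and 0.351, and IRAK4(KD) replicate 2 correlated best with Control replicate 1 at 0.190, so the numbers are not shown to pair the samples. GCRMA values near the bottom of the scale and 3 arrays in each group limit how small a difference could be called. The smallest difference called was 0.20, and the largest not called was 1.18.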

Other observations

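Of the 967 genes called between IRAK4(KD) and Control, 620 stood in none of the lists. Those named here beyond the rule were chosen after their values were seen. Among the higher ones, INA1, a membrane protein gene of unclear function, had 7.69, 7.93 and 7.49 in IRAK4(KD) cells against 6.55, 6.58 and 6.41 in Control cells, a difference of 1.19 ± 0.16. YER053C-A, a small open reading frame, had 10.57, 10.36 and 10.25 against 9.23, 9.05 and 8.52, a difference of 1.46 ± 0.17. SFG1, a regulator of surface growth and pseudohyphae, had 6.86, 7.08 and 6.90 against 5.97, 6.11 and 5.77, a difference of 1.00 ± 0.13. All 3 genes were higher on every IRAK4(KD) array than on every Control array. Among the lower ones, BOP2, of unknown function, had 6.97, 6.84 and 6.30 against 8.11, 8.25 and 8.29, a difference of -1.52 ± 0.17. PIR5, a gene related to wall proteins, had 6.01, 6.09 and 5.76 against 7.17, 7.57 and 7.60, a difference of -1.49 ± 0.15. AQR1, an exporter of amino acids and weak acids, had 8.71, 8.69 and 8.23 against 10.10, 10.19 and 10.16, a difference of -1.61 ± 0.25.

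Genes that lie next to each other in the RefSeq annotation were both called in 174 of 5017 neighbouring pairs with both genes tested. Of all genes 17.7% were called, and how many such pairs arise when calls fall regardless of position was not computed. In 76 of these pairs both were higher, in 39 both were lower and in 59 the calls were opposite. The pairs named here were picked from those called in the same direction with the largest changes. The zinc gene ZPS1 lies next to the copper gene FRE7, at 2.03 and 1.11. FIT3 and FRE5, both of iron uptake, lie side by side at -1.35 and -1.03, and SNO1 and SNZ1 at -1.20 and -1.09. PRM7 and BSC1 are neighbours at -1.65 and -1.71, and TDA6 and CUR1 at 1.05 and 1.27. Whether neighbours share signal or control was not tested.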
